A study of Mus musculus with 4 samples.

Results

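Cholesterol synthesis and uptake genes were followed through the differentiation of dendritic cells from bone marrow progenitors in culture. The members were 8 genes of 8220 on the array: the synthesis enzymes Idi1, Fdps, Fdft1, Sqle, Lss, Cyp51 and Dhcr7, and the lipoprotein receptor gene Vldlr. They were chosen by name, with every probe set annotated to them, which gave 11 probe sets of 12654. Total RNA of mouse cells was measured on 4 expression arrays: bone marrow progenitors of dendritic cells, cells differentiated for 7 days, cells differentiated for 10 days, and cells differentiated for 10 days that also received the cytokine TNF for 16 hours. The TNF cells came from progenitors amplified in vitro, per the labels. The labels name neither a mouse strain, sex or age nor how many animals or cultures stand behind an array. Each group had 1 array, so no test and no p-value can be given, and each difference below is one between 2 arrays.

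Cells make cholesterol from acetyl-CoA through mevalonate. Idi1 and Fdps act on the short isoprenoid units, Fdft1 joins farnesyl diphosphate into squalene, Sqle and Lss turn squalene into the first sterol, and Cyp51 and Dhcr7 trim that sterol towards cholesterol. Most of these genes are switched on by SREBP-2, a transcription factor that is held in the endoplasmic reticulum when sterols are plentiful, and cells can instead take up cholesterol in lipoproteins through a family of endocytic receptors to which the Vldlr product belongs.

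Levels are deposited probe-set intensities scaled to a common 75th percentile, in array units. Values under 428 units, the 60th percentile of all scaled values, were treated as noise. They were raised to 428 units before any log2 ratio was taken, and a fold against such a value is written as "at least". Where both arrays lay under 428 units no fold is given. For a gene with several probe sets the brightest stands for it. Differences of 2-fold or more are counted. In bulk RNA, fewer cells of a type and less RNA per cell cannot be told apart.

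The arrays matched their labels in the defining genes. Of 7 dendritic cell markers, such as Itgax and the MHC class II genes, 1 was above 428 units in progenitors and all 7 were on each later array, with summed levels of 2655, 81085, 342039 and 343241 units on the progenitor, day 7, day 10 and TNF arrays. Of 8 progenitor and early granulocyte genes, 7, 7, 4 and 3 were above it, with summed levels of 108848, 19984, 4100 and 2957 units, Cd34 lay under it on all 4 arrays, and Kit was at 647, 1308, 1362 and 1624 units. Of 10 macrophage markers 6, 7, 7 and 7 were above it, with summed levels of 11014, 73642, 156183 and 115245 units, while the complement genes C1qa, C1qb and C1qc were under it on all 3 arrays after the progenitor. Of 11 genes of other organs, 0, 0, 0 and 1 exceeded 428 units. Across all genes 3888 to 3991 lay above it on each array. The day 10 arrays were brighter at the top of the scale, as given below. The dendritic cell and macrophage sums may therefore overstate the difference between day 7 and day 10.

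Synthesis genes were brightest in progenitors and dimmer at each later day. Of the 8 members, 5 (Idi1, Fdps, Fdft1, Sqle and Cyp51) were above 428 units on all 4 arrays, Dhcr7 was above it in progenitors and at day 7, Vldlr was above it with TNF alone, and Lss was never above it. The 6 synthesis members detected in progenitors were all lower at day 7 and lower again at day 10, and all 6 were at least 2-fold lower at day 10 than in progenitors. Among the 3888 genes above 428 units in progenitors, 28.6% were lower at both steps and 13.6% were lower at both steps and at least 2-fold lower at day 10. This stepwise count was added after the members' values had been seen.

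**Figure D1:**
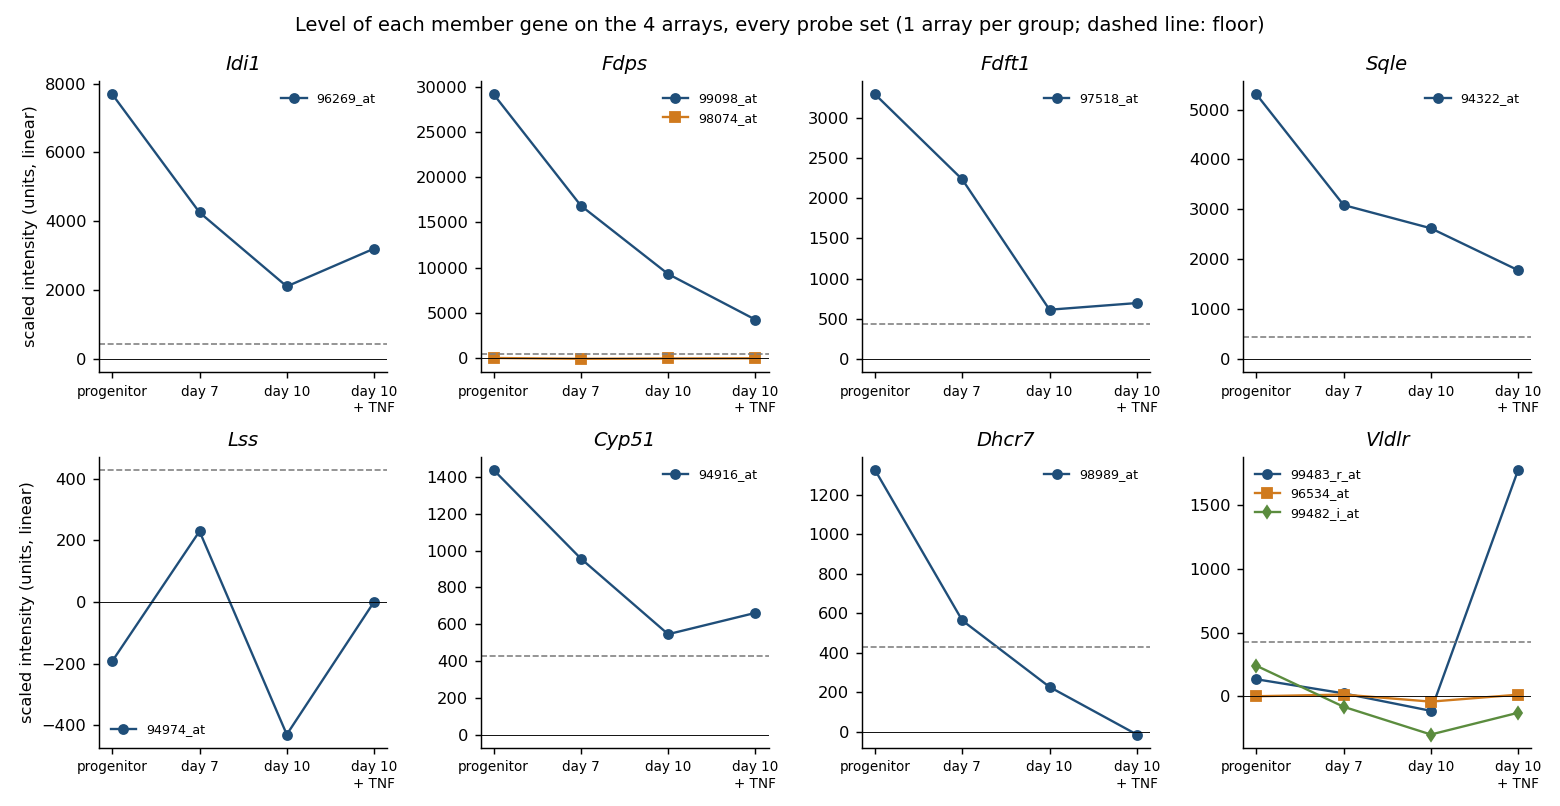
Scaled intensity in array units (linear axes, 1 panel per gene) on the progenitor, day 7, day 10 and day 10 with TNF arrays, with 1 line per probe set and a dashed line at 428 units. Idi1, Fdps, Fdft1, Sqle, Cyp51 and Dhcr7 start at their highest level in progenitors, Lss stays under the dashed line, and 1 of 3 Vldlr probe sets stands at 1774 units with TNF.

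Idi1 encodes isopentenyl diphosphate isomerase, which interconverts the building blocks of all isoprenoids. It was at 7688 units in progenitors, 4254 at day 7, 2104 at day 10 and 3201 with TNF. The level was 1.81-fold lower at day 7 than in progenitors and 2.02-fold lower at day 10 than at day 7, so that 27.4% of the progenitor level was left at day 10. The TNF array lay between those of days 7 and 10.

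Fdps encodes farnesyl diphosphate synthase, whose product feeds both sterols and the lipid anchors of prenylated proteins. Its brighter probe set was at 29168 units in progenitors, 16851 at day 7, 9290 at day 10 and 4245 with TNF, lower at each stage in that order. The day 7 level was 1.73-fold lower than in progenitors, the day 10 level 1.81-fold lower than at day 7, and the TNF level 2.19-fold lower than at day 10. On the TNF array 14.6% of the progenitor level was left. The other Fdps probe set gave 7.62, -83.0, -47.4 and -25.3 units on the 4 arrays, all within noise, so the Fdps values rest on 1 probe set.

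Fdft1 encodes squalene synthase, the enzyme that commits farnesyl diphosphate to sterols. It was at 3298 units in progenitors, 2236 at day 7, 612 at day 10 and 695 with TNF. Most of its difference lay between days 7 and 10. It was 1.47-fold lower at day 7 than in progenitors, and at day 10 it was 5.39-fold lower than in progenitors, with 18.6% left. Fdft1 has 1 probe set, and its levels on both day 10 arrays were not far above 428 units.

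Sqle encodes squalene epoxidase, a rate-limiting oxygen-dependent step. It was at 5306 units in progenitors, 3084 at day 7, 2618 at day 10 and 1776 with TNF. In contrast to Fdft1, its larger difference lay before day 7, with 58.1% of the progenitor level left at day 7 and 49.3% at day 10. The step from day 7 to day 10 was a log2 ratio of -0.24, smaller than the spread between probe sets given below.

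Cyp51 encodes lanosterol demethylase. It was at 1438 units in progenitors, 956 at day 7, 545 at day 10 and 661 with TNF. Both day 10 arrays were near the noise limit, and 37.9% of the progenitor level was left at day 10.

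Dhcr7 encodes the reductase that makes cholesterol in the last step of one branch of the pathway. It was at 1325 units in progenitors, 563 at day 7, 226 at day 10 and -15.1 with TNF. It was 2.35-fold lower at day 7 than in progenitors, the only member past 2-fold at that step (after quantile normalization Fdps passed it too, with a log2 ratio of -1.04), and at least 3.10-fold lower at day 10 than in progenitors. The day 10 and TNF values are both noise, so no fold is given between them.

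Lss encodes lanosterol synthase, which closes the sterol rings. Its 1 probe set gave -192 units in progenitors, 229 at day 7, -430 at day 10 and 0.103 with TNF. These values were below or within noise on every array, and no difference can be read from them.

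**Figure D2:**
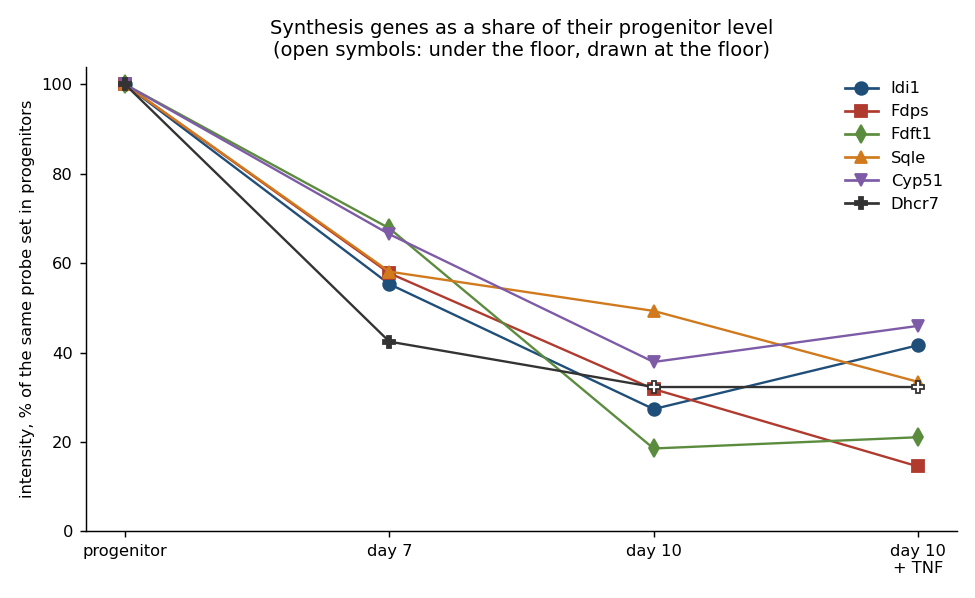
Intensity of 6 synthesis genes as a percentage of the same probe set in progenitors, on the 4 arrays, where open symbols are values under 428 units drawn at that limit. At day 10 the closed symbols lie between 18.6% for Fdft1 and 49.3% for Sqle, and with TNF Fdps stands at 14.6% and Cyp51 at 46.0%.

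The error of a ratio cannot be had from replicates here. How far the log2 ratios of a gene's 2 brightest probe sets differed, where both were above 428 units on both arrays, was used in its place. The SD of these differences came to 0.62 for day 7 over progenitor (373 genes), 0.71 for day 10 over day 7 (370 genes), 0.81 for day 10 over progenitor (343 genes) and 0.56 for TNF over day 10 (369 genes). It covers differences between probes and not those between cultures or hybridisations. At day 7 the 6 synthesis members that could be measured had log2 ratios to progenitors of -1.24 to -0.56, and 4 of the 6 were beyond that SD. The median of the 6 was -0.79, against -0.07 over 4311 genes. Only Dhcr7 passed 2-fold, and 9.72% of those 4311 genes were at least 2-fold lower, so the count of members at this step is near the background.

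At day 10 compared with day 7, Idi1 and Fdft1 were at least 2-fold lower, by 2.02-fold and 3.65-fold, and 0 members were higher. Of 4326 genes 4.65% were at least 2-fold lower. The log2 ratios of the 6 members lay between -1.87 and -0.24 with a median of -0.83, against 0.05 over all genes tested. The value for Dhcr7, -0.39, is a bound because its day 10 level was under 428 units. After quantile normalization Fdps was at -1.51 in place of -0.86, and 3 members were counted as lower at this step. Over both steps, day 10 against progenitor, 6 of the 8 members were at least 2-fold lower and 0 higher, where 14.8% of 4460 genes were lower. The 6 log2 ratios of -2.43 to -1.02 had a median of -1.64, against 0.02 over all genes, and all 6 lay beyond the SD of 0.81 between probe sets. Dhcr7 entered these counts through its progenitor level alone, and so could only come out lower at day 10.

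The day 10 arrays were brighter than the earlier ones at the top of the scale, including added controls. The 11 spiked-in bacterial probe sets stood at a median log2 ratio of 1.50 for day 10 over day 7. Among 276 probe sets within the same doubling of mean level as Fdps, the median log2 ratio was 0.24, while that of Fdps was -0.86. Quantile normalization, which gives all arrays the same distribution, made the Fdps ratio of day 10 to progenitor -2.54, against -1.65. Without the further scaling, in the values as deposited, the median of all genes between day 10 and day 7 was -0.07 in place of 0.05, and the log2 ratio of Idi1 was -1.14 in place of -1.02. The whole array had 314 genes counted as higher and 201 as lower at day 10 against day 7, or 231 and 234 after quantile normalization and 254 and 257 in the values as deposited. For day 10 over day 7, quantile normalization made the median log2 ratio of the dendritic cell markers 0.77 in place of 1.92. That of the macrophage markers became 0.12 in place of 0.65. All 6 members kept ratios below 0 at both steps under both scalings.

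Proliferation genes were lower over the same steps. Of 15 proliferation genes measured, such as Mki67, Top2a and the Mcm genes, 14 were above 428 units in progenitors, 13 at day 7 and 6 at day 10 and with TNF, and their summed level was 83679, 29139, 8331 and 7253 units in that order. Their median log2 ratio was -1.70 for day 7 over progenitor and -1.26 for day 10 over day 7. The second median understates the difference, because genes under 428 units at day 10 enter as bounds, and with the floor of 105 units it was -2.07. The part of proliferation, or of the loss of early granulocyte genes, in the lower synthesis genes was not tested.

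With TNF for 16 hours the synthesis members did not share a direction. Fdps was 2.19-fold lower with TNF than without (log2 ratio -1.13), and Sqle was 1.47-fold lower (-0.56). Idi1 was 1.52-fold higher (0.61), Cyp51 1.21-fold higher (0.28) and Fdft1 1.14-fold higher (0.18). Of the 8 members Fdps alone was counted as lower, where 5.15% of 4308 genes were, and after quantile normalization its log2 ratio was -0.99, just short of 2-fold. The ratios of Fdft1 and Cyp51 were smaller than the SD of 0.56 between probe sets, that of Sqle was at it, and that of Idi1 was just beyond it. Idi1 and Fdps act in consecutive steps of the pathway, and their log2 ratios to day 10 had opposite signs.

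The other enzymes of the pathway were described from a list of 14 genes, of which 9 were measured. Hmgcs1, which acts early, ahead of mevalonate, was at 5198 units in progenitors, 4276 at day 7, 1928 at day 10 and 1783 with TNF. It was 2.22-fold lower at day 10 than at day 7, a late step like that of Fdft1. Nsdhl, a sterol dehydrogenase, was at 3595, 1850, 1518 and 1234 units in the same order, and was 1.94-fold lower at day 7 than in progenitors. Its 2 other probe sets were lower over both steps too, with log2 ratios of -1.84 and -1.29 for day 10 over progenitor, beside -1.24 for the brightest.

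Most other enzymes of the list were dim or differed by less than 2-fold. Mvk, mevalonate kinase, was 1.35-fold lower at day 10 than in progenitors, and Ebp, a sterol isomerase, 1.10-fold lower. The sterol reductase gene Tm7sf2 was 1.08-fold higher, and its log2 ratio was 0.11 or, in the values as deposited, -0.01. Msmo1 and Hsd17b7 were under 428 units on all arrays. Sc5d read 535 units on the progenitor array and 439 on the day 7 array and was under 428 on both later arrays, so its day 10 ratio is a bound. Mvd was under 428 in progenitors and at day 7 and just above it on both later arrays, at 483 units at day 10 and 481 with TNF. Of the 16 measured genes of the whole pathway, 8 were at least 2-fold lower at day 10 than in progenitors and 0 higher. Of 4460 genes above 428 units on either array, 14.8% were lower and 17.3% higher. The 8 include the 6 members already counted. Of the 9 that are no members, 2 were lower, Hmgcs1 and Nsdhl, and their median log2 ratio over 7 genes above 428 units was -0.32. These 2 of 7 genes are too few to be told from the share of all genes. With TNF, 0 of the 9 (6 above 428 units) differed from day 10 by 2-fold, and Ebp had the largest ratio, -0.54. Of 4308 genes 4.71% were at least 2-fold higher with TNF and 5.15% lower.

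**Figure D3:**
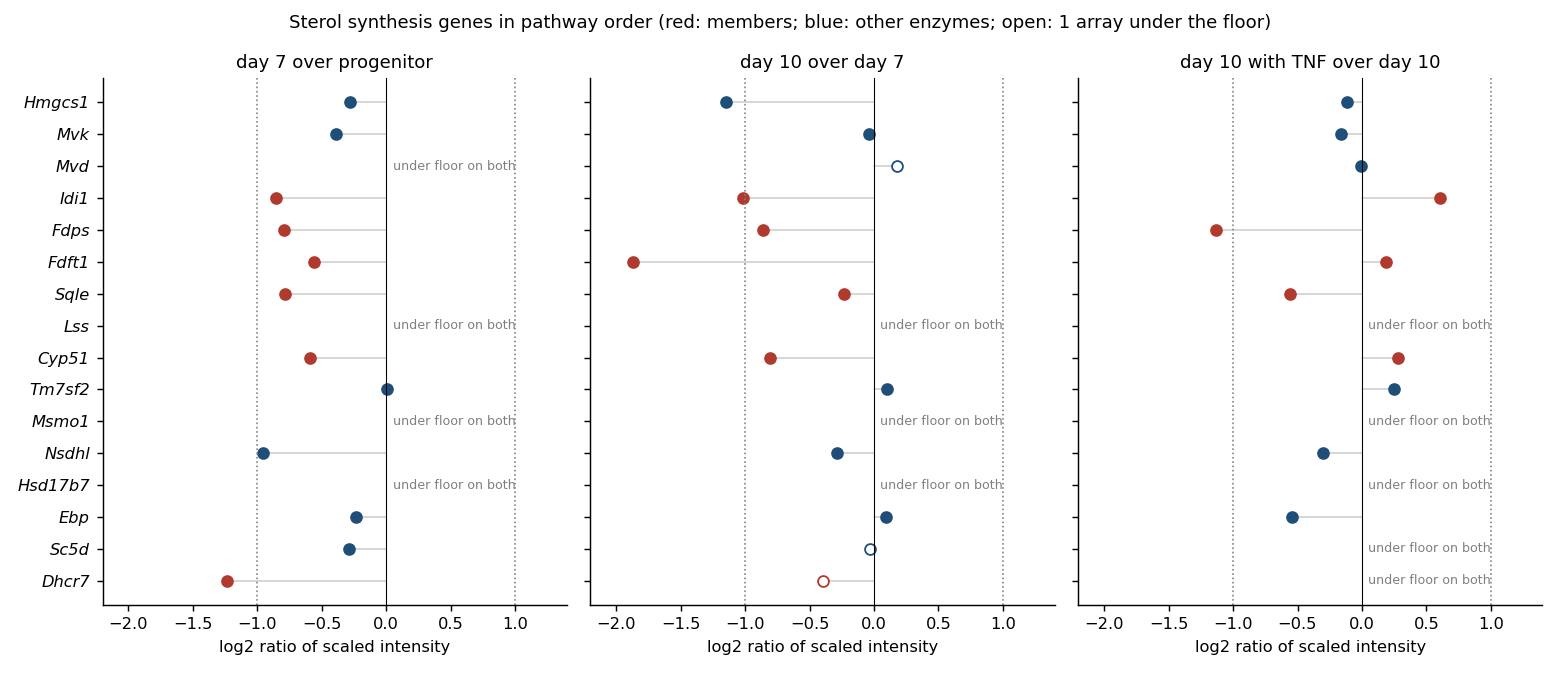
Log2 ratios of scaled intensity for 16 sterol synthesis genes in pathway order from top to bottom, for day 7 over progenitor, day 10 over day 7, and day 10 with TNF over day 10; members are red, other enzymes blue, open circles have 1 array under 428 units, and dotted lines mark 2-fold. The red points lie left of 0 in the left and middle panels, and in the right panel Fdps lies at -1.13 and Idi1 at 0.61.

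Genes that control the pathway were measured in part. Srebf1, which encodes SREBP-1, the relative of SREBP-2 that favours fatty acid genes, was at 4643 units in progenitors, 5983 at day 7, 7077 at day 10 and 4412 with TNF. It was therefore 1.52-fold higher at day 10 than in progenitors, while the synthesis members were lower, and 1.60-fold lower with TNF than at day 10. The first log2 ratio, 0.61, was smaller than the SD of 0.81 between probe sets. The second, -0.68, was beyond the SD of 0.56. Mbtps1, a protease that releases SREBPs, lay between 1902 and 2105 units on all arrays. Insig1, which retains SREBPs in the endoplasmic reticulum, was under 428 units throughout. Srebf2 was not analysed here.

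The promoter letters of the members with one or more starts in the RefSeq table (GRCm38.p6) were searched, because 6 synthesis members were lower at both steps up to day 10. The table matched 5 of the 8 members at 8 starts. Both strands of the 250 bases before each start were searched for TCACNCCAC, the core of a sterol regulatory element, for CCAAT, the box of NF-Y, and for GGGCGG, a box of Sp1. NF-Y and Sp1 are known partners of SREBPs. The strict sterol core was at 0 of the 8 starts and is in 1.05% of all 32851 promoters. A looser form, TCACNNCA, added after the members had been searched and overlapping the strict form, is in 11.4% of promoters and was found before Cyp51 and before 2 of 3 Dhcr7 starts. CCAAT is in 33.8% and GGGCGG in 32.7% of promoters, and both together in 11.0%. Both occurred before the single starts of Idi1, Cyp51 and Lss and before 1 start each of Dhcr7 and Vldlr. The 3 promoters of detected synthesis members that hold both boxes are printed 5′ to 3′ up to the base before the start, with the matches in capitals (ATTGG and CCGCCC are the boxes on the other strand).
Idi1, chr13:8885356-8885605, plus strand: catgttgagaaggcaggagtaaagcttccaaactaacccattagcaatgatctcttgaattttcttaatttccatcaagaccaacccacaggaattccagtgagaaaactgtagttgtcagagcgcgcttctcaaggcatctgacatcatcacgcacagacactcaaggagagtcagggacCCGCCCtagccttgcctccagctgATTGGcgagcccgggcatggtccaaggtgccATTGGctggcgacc
Cyp51, chr5:4104698-4104947, minus strand: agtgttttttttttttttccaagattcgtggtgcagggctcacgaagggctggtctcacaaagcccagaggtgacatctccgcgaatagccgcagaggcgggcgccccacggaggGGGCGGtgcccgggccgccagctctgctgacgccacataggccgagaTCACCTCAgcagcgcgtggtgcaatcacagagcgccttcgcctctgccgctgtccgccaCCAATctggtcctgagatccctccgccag
Dhcr7, chr7:143829964-143830213, plus strand: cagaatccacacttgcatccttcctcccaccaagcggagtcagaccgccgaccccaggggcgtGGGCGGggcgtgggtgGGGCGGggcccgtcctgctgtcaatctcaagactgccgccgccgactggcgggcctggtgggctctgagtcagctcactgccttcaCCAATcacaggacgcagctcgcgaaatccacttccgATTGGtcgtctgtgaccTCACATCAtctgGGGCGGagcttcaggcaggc
In Idi1 both NF-Y boxes lie within 45 bases of the start and the Sp1 box ends 64 bases before it. In Cyp51 the looser sterol form spans bases 88 to 81 before the start. In the Dhcr7 start shown, which is one of 3 in the table, the looser form spans bases 32 to 25 and lies between an NF-Y box and a Sp1 box. A match of letters is a description and says nothing of binding in these cells.

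Uptake was represented among the members by Vldlr, which encodes a receptor for triglyceride-rich lipoproteins. Its brightest probe set gave 135 units in progenitors, 24.4 at day 7, -112 at day 10 and 1774 with TNF, at least 4.14-fold higher with TNF than at day 10. Vldlr entered this comparison through the TNF array alone, and so could only come out higher. Of 4308 genes 4.71% were at least 2-fold higher with TNF. The 2 other Vldlr probe sets did not follow. One gave 1.93, 14.9, -40.2 and 14.4 units, and the other, designed on the same transcript as the brightest, gave 241, -80.5, -298 and -127 units. With the mean of the 3 probe sets the log2 ratio was 0.37, against a bound of 2.05 for the brightest alone.

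The suffix of the bright Vldlr probe set marks one whose probes were chosen under relaxed rules. Of 110 such probe sets above 428 units on either day 10 array, 5 were at least 2-fold higher with TNF, or 4.55%, close to the share of all genes. In other comparisons the shares were less alike. For day 10 over day 7, 16.5% of such probe sets were higher, against 7.26% of all genes. For day 7 over progenitor 6.67% were, against 10.5%. Such shares cannot tell whether this probe set reads Vldlr. Disagreement of this kind was common. Of 47 genes with several probe sets whose brightest was at least 2-fold higher with TNF, 6 had another that also was, and 30 had all others under 428 units on both arrays. The Vldlr level with TNF therefore rests on 1 probe set on 1 array.

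Other uptake and transport genes ran opposite to the synthesis members over differentiation. Lrp1, a large endocytic receptor of the same family as Vldlr, was at 1868 units in progenitors, 9644 at day 7, 20670 at day 10 and 11187 with TNF. The day 7 level was 5.16-fold higher than that in progenitors. Lrpap1, its chaperone, was at 708, 2204, 4736 and 3421 units in the same order. Npc1, which exports cholesterol from lysosomes, was at 2159, 12155, 18557 and 12378 units, although a second Npc1 probe set stayed under 428 units on all arrays. Lipa, the lysosomal lipase that frees cholesterol from its esters, was 6.51-fold higher at day 10 than in progenitors, and Msr1, a scavenger receptor that was under 428 units in progenitors, at least 3.46-fold higher.

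Of the 9 measured genes of the uptake and transport list, 5 were at least 2-fold higher at day 10 than in progenitors and 0 lower, where 17.3% of 4460 genes were higher. The median log2 ratio of the 7 above 428 units was 2.70, or 2.58 after quantile normalization. Most of the difference lay before day 7, with 4 genes higher there, where 10.5% of 4311 genes were, and 2 higher between days 7 and 10, where 7.26% of 4326 genes were, or 0 in the values as deposited. Scarb1, a receptor for high-density lipoprotein, was the 1 gene of the 7 with a lower level at day 10 than in progenitors, at 8248 units in progenitors, 9324 at day 7, 5749 at day 10 and 2371 with TNF. Cd36 and Npc2 were under 428 units on all arrays.

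With TNF, 6 of the 7 uptake and transport genes above 428 units had lower levels than at day 10 and 1 was higher. The higher one was Msr1, at 1500 units against 1483, and its second probe set was lower, at 891 against 1306. With the mean of a gene's probe sets 0 of the 7 were higher. Scarb1 and Lipa passed 2-fold, at 2.42-fold and 2.10-fold lower, and Lrp1 was 1.85-fold lower. After quantile normalization 1 of them was past 2-fold. Of 4308 genes 5.15% were at least 2-fold lower with TNF. Of the 7 macrophage markers above 428 units 5 were also lower with TNF, with a summed level over the list of 115245 units with TNF, against 156183 at day 10, and 2 of 10 past 2-fold. Log2 ratios were -1.73 for the mannose receptor gene Mrc1, -1.32 for Adgre1 and -0.81 for Cd68. The 2 markers with higher levels were Csf1r, at 12111 units with TNF against 11354 at day 10, and Lpl, at 21081 against 20101. The markers thus did not share a direction, and the part of macrophages in the lower uptake genes was not tested.

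Efflux and oxysterol genes were measured in part. Abca1, the cholesterol exporter, was at 24.6 units in progenitors, 1000 at day 7, 1022 at day 10 and 1904 with TNF. Its second probe set agreed in being highest with TNF, at 2386 units, but was at 115 at day 7, under 428. Nr1h3, which encodes the oxysterol receptor LXR alpha, was at 116, 1417, 1434 and 984 units, at least 3.31-fold higher at day 7 than in progenitors. Its partner Rxra was 4.43-fold higher at day 10 than in progenitors, with a log2 ratio of 2.15 from this probe set and 0.94 from another. Ch25h, which makes an oxysterol known to restrain SREBP processing, was at 245, 871, 2200 and 2415 units. Of 6 measured genes in this list, 4 were at least 2-fold higher at day 10 than in progenitors and 1 lower, which was Apoe, with 1075 units on the progenitor array and under 428 on the others. Of 4460 genes 17.3% were higher and 14.8% lower at that step. Abca1, Nr1h3 and Ch25h were above 428 units at day 10 but not in progenitors, and Apoe in progenitors but not at day 10, so the direction of these 4 was fixed by the limit of 428 units. Abcg1 was under 428 units on all arrays, and Soat1 was not analysed here. Macrophage markers were higher on the same arrays, and their part in the higher uptake and efflux genes was not tested.

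**Figure D4:**
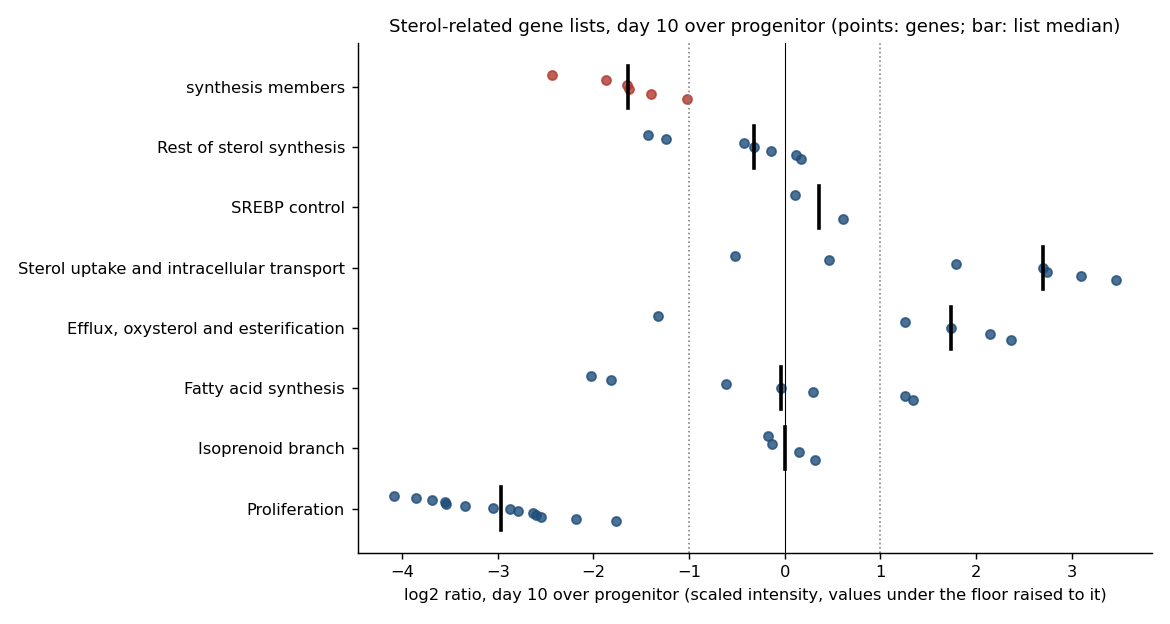
Log2 ratios of day 10 over progenitor for genes above 428 units on either array, by list; each point is a gene and each bar the list median, and dotted lines mark 2-fold. The synthesis members lie between -2.43 and -1.02, the uptake and transport list has its median at 2.70, and the proliferation genes have theirs at -2.96.

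Genes most like the members were sought among 4199 genes above 428 units on at least 2 arrays, by the distance between log2 levels over the 4 arrays, each centred on its mean. The nearest to the median profile of the 7 synthesis members, which counts Lss as flat, were Lig1, Prps1l3, Hps4, Inpp5j and Tmpo, at distances of 0.14 each. Inpp5j was under 428 units at day 10 and with TNF, and Lig1 and Hps4 were under it with TNF. The matches of these genes therefore rest in part on values raised to that limit. Lig1 is a DNA ligase of replication and Tmpo a protein of the nuclear envelope. The members themselves were not among the 5 nearest: Dhcr7 ranked 58, Cyp51 70, Idi1 196, Sqle 197, Fdft1 1226 and Fdps 1405. The members thus shared the direction of the differences up to day 10 more than their size or their course with TNF. The nearest to Vldlr were Tnfsf4, Tank, Il12rb2, Tspan33 and Tnfaip3, at distances of 0.16 to 0.35. Vldlr was above 428 units on the TNF array alone, so other genes detected only there were left out of this search. Its profile is level at that limit but for the TNF array, read by a probe set that its others did not follow. Any gene with a rise of like size with TNF alone would come out near it. Tnfaip3 encodes A20, a brake on NF-kB signalling. Its level was 1705 units with TNF, against 557 at day 10. All these profiles have 4 points from the same 4 arrays.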

How the data were processed

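Total RNA of 4 samples of mouse cells was measured on Affymetrix-type expression arrays, 1 array per group. The table deposited by the authors holds linear intensities, 1 per probe set and array, and 22.8% to 24.3% of them per array are below 0, so a background had been subtracted. The authors' software, background method and scaling stay unknown from these sources, and the labels cite a published protocol for labelling and hybridisation. GEO's platform annotation gave the names: 10298 of 12654 probe sets have 1 gene symbol, 363 several and 1993 none. Symbols were updated by gene ID for 10257. Probe sets with several symbols or none and 66 control probe sets were left out of the 8220 genes. Arrays were brought to the same 75th percentile by factors of 0.962 to 1.05, scaled values under their overall 60th percentile, 428 units, were raised to it, and log2 ratios were taken with Python 3.11.15 and pandas 2.3.3. Counts use a 2-fold rule. A simulation with planted 4-fold differences in bright probe sets and little noise checked only the counting code. It says nothing of 2-fold differences or of values near 428 units. With 1 array per group no test was possible, and the number of arrays limits the precision. Alternatives were quantile normalization, the values as deposited, a floor at the 40th percentile (105 units), the mean of a gene's probe sets, and a 3-fold rule. The members, gene lists and rules were chosen with earlier results of these data known. The genes named are all members, 14 regulators and transporters set in advance where measured, in each list up to 3 members with the largest ratios, the 5 nearest profiles, and marker genes. Msmo1, Hsd17b7 and Npc2 were named to complete the pathway after their values were seen.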

Additional observations from a re-analysis of the deposited data

How the results depend on the processing

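Of 128 ratios of single members under an alternative, 67 were identical to the reported ratio, as happens where both arrays lie under the floor or a gene has 1 probe set, and so say nothing of stability. Of the 61 that differed, 53 moved by less than the SD between probe sets and 8 by more, and 0 changed sign where a 2-fold difference had been counted. The count of 6 members lower at day 10 than in progenitors was 6 under each of the scaling, floor and probe-set alternatives and 4 under the 3-fold rule. In the main setting 1, 2, 6 and 1 members, and 1, 3, 8 and 1 pathway genes, were lower for day 7 over progenitor, day 10 over day 7, day 10 over progenitor and TNF over day 10, and the only one higher was Vldlr with TNF. With quantile normalization 2 members, and 2 pathway genes, were lower at day 7 than in progenitors, and 0 members and 0 pathway genes lower with TNF than at day 10, because Fdps crossed 2-fold (log2 ratios of -1.04 and -0.99). It also made 3 members and 4 pathway genes lower at day 10 than at day 7. With the floor of 105 units, 1 member and 1 pathway gene (Lss) were higher at day 7 than in progenitors. With that floor 4 members and 7 pathway genes were lower and 1 pathway gene higher at day 10 than at day 7, 1 pathway gene was higher at day 10 than in progenitors, and 2 members and 2 pathway genes were lower with TNF than at day 10. The lower floor reads values such as the 229 units of Lss as signal. With the 3-fold rule 0 members and 0 pathway genes were lower at day 7 than in progenitors, 1 and 1 lower at day 10 than at day 7, 4 pathway genes lower at day 10 than in progenitors, and 0 and 0 lower with TNF. With the mean of a gene's probe sets 0 members were higher with TNF, since Vldlr lost its 1 count. No paired analysis was possible because each group has 1 array.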

Other observations

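Fatty acid synthesis genes, which share control by SREBPs with the sterol pathway, did not share a direction. Of 9 measured genes, 7 were above 428 units at day 10 or in progenitors. At day 10, against progenitors, 2 of these 7 were higher by 2-fold or more and 2 were lower. Of all 4460 genes above that limit on either array, 17.3% were higher and 14.8% lower. With 7 genes the counts are too small to be told from these shares. Fasn, fatty acid synthase, was at 12550 units in progenitors, 3980 at day 7, 3091 at day 10 and 1804 with TNF. The day 7 level was 3.15-fold lower than that in progenitors. The elongase gene Elovl6 was at 1511, 973, 421 and 166 units in the same order. The desaturase gene Scd1 was on the other side, at 2483, 6350, 6311 and 9388 units. A second Scd1 probe set gave 1968, 4286, 3369 and 5653 units. The third did not follow at day 7 or with TNF, at 222, 70.2, 930 and 730 units. Scd2 was at 47398 units at day 10, against 16204 at day 7, a log2 ratio of 1.55, or 0.53 with quantile normalization.

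Genes of the isoprenoid branch, which uses the product of Fdps for protein anchors, were mostly near or under 428 units. Of 6 measured, 4 were above that limit at day 10 or in progenitors. Of these 4, 0 were 2-fold higher or lower at day 10 than in progenitors. Of 4460 genes 17.3% were higher and 14.8% lower, and 4 genes are too few to set against that. Rabggta and Coq7 enter as bounds, so only Fnta and Rabggtb have a measured ratio. Fnta, a subunit of farnesyl transferase, was at 2515 units in progenitors, 2520 at day 7, 2787 at day 10 and 2072 with TNF. Rabggtb was at 2373, 1533, 2166 and 2150 units.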
